A study of Mus musculus with 13 samples.

Results

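Hox genes encode homeodomain transcription factors that give cells their position along the head-to-tail axis of the embryo, and in mammals they lie in 4 clusters, named A to D. Within a cluster all Hox genes are read from the same strand, and their order on the chromosome runs parallel to the order in which they are switched on and to where in the body they act, with the low paralogue numbers at the 3′ end used early and toward the head and the high numbers at the 5′ end used late and toward the tail. In mouse embryonic stem (ES) cells the clusters are largely silent under Polycomb repression, and the DNA-binding protein CTCF, which with cohesin sets the ends of chromatin loops, has well-studied sites within them. The rows of both deposited count tables whose symbol names a gene of the A, B, C or D cluster were taken, which gave 39 Hox genes of 24421 genes in each table, namely 11 in cluster A, 10 in cluster B, 9 in cluster C and 9 in cluster D. The rule itself uses only the symbol.

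Polyadenylated RNA was sequenced from female F1-2.1 mouse ES cells, a CAST/Ei by 129/Sv/Jae hybrid line, carrying a doxycycline-inducible CTCF transgene in which a serine is replaced by glutamic acid (S224E), a substitution meant to mimic phosphorylation. The 2 +dox libraries came from cells given 1 µg/mL doxycycline for 6 days and the 2 -dox libraries from the same cells without it, and each deposited table holds 1 library of each kind with the same replicate number. All 4 libraries came from 1 clone (A2), which keeps its endogenous Ctcf, carries the reverse tetracycline transactivator and co-induces EGFP, and the cells were grown with LIF on irradiated mouse embryonic fibroblast feeders, so that feeder RNA can be part of the counts. No RNA library of cells with doxycycline and without S224E was analysed here, so the transgene and the drug cannot be told apart. The methods call the 2 replicates of a condition biological. The p-values set the difference between conditions against the spread between these libraries of 1 clone, and do not cover variation between clones.

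The libraries held 22899107 to 30206085 counts. The Ctcf row, which would include any transgene reads that matched it, stood at 327 and 329 CPM (counts scaled by library size) with doxycycline and at 295 and 304 CPM without, a log2 fold change of 0.13 (SE 0.09, adjusted p = 0.475, edgeR quasi-likelihood test with Benjamini-Hochberg adjustment). Naive pluripotency markers, 16 listed genes, summed to 6970 and 8090 CPM with doxycycline and to 6490 and 7080 CPM without, and none of the 4 libraries lacked this defining set of ES cells. Markers of fibroblasts, 30 genes, summed to 2230 and 1030 CPM with doxycycline and to 844 and 901 CPM without. The +dox library of replicate 1 thus stood apart from the other 3 in RNA of these fibroblast markers.

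Hox genes were higher with doxycycline as a group, at low levels and without a single gene past the threshold of the study's design. The fitted log2 fold change of +dox over -dox was above 0 for all 39 Hox genes, against 50.8% of the 20044 genes tested, and ran from 0.10 for Hoxb13 to 2.14 for Hoxb8 with a median of 1.27. The median over all genes tested was 0.01, and that of the 6841 genes within the range of mean levels of the Hox genes was -0.04. Summed over the 39 genes, Hox transcripts stood at 84.4 and 57.5 CPM with doxycycline and at 36.0 and 33.0 CPM without. Both +dox sums were above both -dox sums, with a ratio of 2.34 in replicate 1 and of 1.74 in replicate 2. In bulk RNA, a larger share of cells that express a gene and more RNA per cell cannot be told apart.

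At an adjusted p under 0.01, 0 of 39 Hox genes were called by edgeR's quasi-likelihood test, where 0.0798% of all genes were called as higher and 0.519% as lower. DESeq2 called 0 as well, with an adjusted p given for only 12 of the 39 because its filter on low means removed the others. At an unadjusted p under 0.05, 22 Hox genes were higher and 0 lower by edgeR (8.48% and 9.31% of all genes). By DESeq2 13 were higher, for which the share over all genes is not given here. Under the looser adjusted p of 0.05, edgeR called 4 Hox genes as higher, which were Hoxa3, Hoxa10, Hoxb4 and Hoxd11, where 0.928% of all genes were called. A fitted log2 fold change of at least 1 was found for 25 of 39 Hox genes and for 9.49% of all genes. Single libraries weighed on both the calls and the sizes. Without the +dox library of replicate 1 the median log2 fold change was 0.54, with 35 of 39 above 0. Without that of replicate 2 the median was 1.64, with 38 above 0. Leaving out the -dox library of replicate 1 or of replicate 2 gave medians of 1.51 and 1.18.

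The direction was shared by both tables in most Hox genes, but the size was not. In 36 of 39 the +dox level was above the -dox level in both tables, against 30.5% of all genes. The exceptions were Hoxa2 and Hoxb13, lower with doxycycline in replicate 2, and Hoxc12, nearly equal there at 0.876 and 0.877 CPM. With DESeq2's size factors the count was 37. In replicate 2, Hoxa6, Hoxc5, Hoxc9 and Hoxd12 had equal raw counts with and without doxycycline, so their small differences came from scaling for library size. Hoxc4 and Hoxd1 had fewer raw counts with doxycycline there. In 29 Hox genes both +dox libraries lay above both -dox libraries, against 23.3% of all genes and 20.9% of the genes at the same levels, and in 0 did both lie below (23.7% of all genes). The median log2 fold change, computed in each table with 2 counts added in proportion to library size, was 1.25 in replicate 1 and 0.59 in replicate 2, while that of all genes was 0.00 in each. The added counts draw the values of low genes toward 0, so the fitted value can lie above those of both tables. Replicate 1 gave the larger value in 32 Hox genes and replicate 2 in 7, and the +dox library of replicate 1 was the highest of the 4 in 30.

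**Figure D1:**
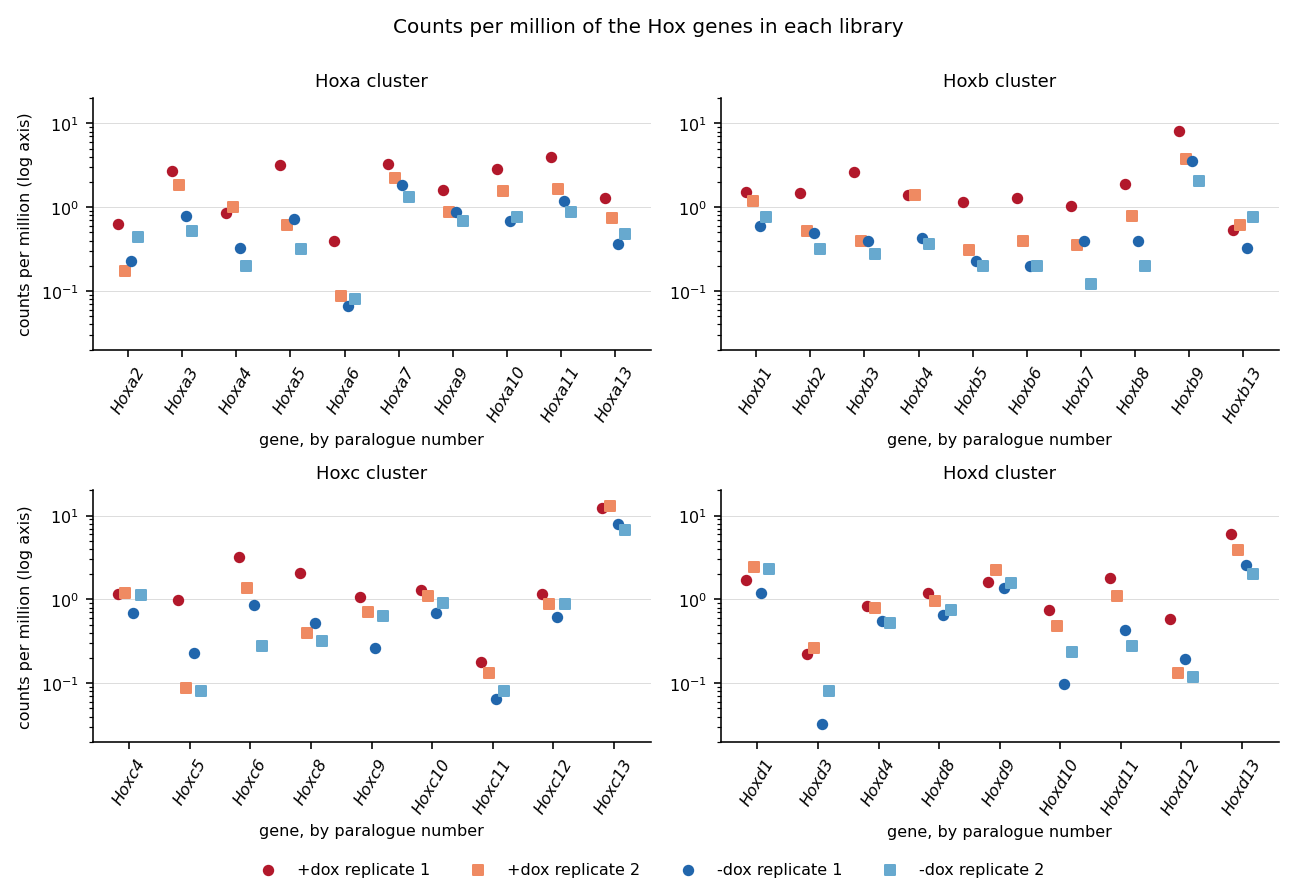
Levels in CPM (log axis) of the Hox genes shown in each of the 4 libraries, with 1 panel per cluster and the genes ordered by paralogue number; red and orange points are the +dox libraries and blue points the -dox libraries. Hoxc13 stands highest, and in most genes both +dox points lie above both -dox points.

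Levels were low throughout. All 39 Hox genes had at least 1 count in every library, but a single gene in a single library had between 1 and 297 counts, with a median of 19.0, and the 39 genes together gave 829 to 1899 counts. Mean levels over the 4 libraries ran from 0.114 CPM for Hoxc11 to 10.0 CPM for Hoxc13 with a median of 0.891 CPM. Only 15 Hox genes reached a mean of 1 CPM. Per kilobase of transcript, the mean -dox level ran from 0.0194 RPKM (CPM divided by the transcript's length in kilobases) for Hoxd3 to 3.05 RPKM for Hoxc13.

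The 4 Hox genes with an adjusted p under 0.05 in the main edgeR fit come from 3 clusters and from both ends of the paralogue order. How many passed 0.05 depended on the processing, from 0 with edgeR's filter on low counts to 15 with a replicate block. By DESeq2 none of these 4 genes passed it. Hoxa3, needed for the thymus and parathyroid, had 2.71 and 1.84 CPM with doxycycline and 0.786 and 0.518 CPM without, a log2 fold change of 1.78 (SE 0.39, adjusted p = 0.0324, edgeR). Its change was nearly equal in the 2 tables, at 1.69 in replicate 1 and 1.68 in replicate 2. Hoxb4, studied for its role in blood stem cells, had 1.38 and 1.40 CPM with doxycycline and 0.426 and 0.359 CPM without, and a log2 fold change of 1.81 (SE 0.44, adjusted p = 0.0473, edgeR). Its 2 +dox libraries were almost the same, as were its 2 -dox libraries. Hoxd11, which patterns the forearm together with Hoxa11, had 1.78 and 1.09 CPM with doxycycline and 0.426 and 0.279 CPM without, with a log2 fold change of 1.99 (SE 0.48, adjusted p = 0.0455, edgeR). Hoxa10, required in the uterus and for the lumbar skeleton, had 2.89 and 1.58 CPM against 0.688 and 0.757 CPM, a log2 fold change of 1.62 (SE 0.40, adjusted p = 0.0496, edgeR). The values of the single tables were 1.95 in replicate 1 and 0.99 in replicate 2. In each of the 4 genes both +dox libraries lay above both -dox libraries, as in 23.3% of all genes. Choosing genes by a low p makes such a gap likely. The Hoxa3 exons share 14.3% of their bases with genes of the opposite strand in the GENCODE annotation and the Hoxd11 exons share 11.5% with a gene of the same strand, and whether the counting used strand is not given in the sources used here.

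The start sites of these 4 transcripts are shown because they are the Hox genes nearest to the threshold in the main edgeR fit. Hox promoters are also known as CpG-rich Polycomb targets. The sequences come from RefSeq (GRCm38.p6) and run from 250 bases before the start to 50 bases after it, 5′ to 3′ on the gene's own strand, with each CG dinucleotide in capitals. An exact match placed each in mm9 (NCBIM37), the build of the counts, at the start of the transcript that was counted. Hoxa3 lies at chr6:52163017-52163316 and Hoxa10 at chr6:52184889-52185188, both on the minus strand, Hoxb4 at chr11:96179331-96179630 and Hoxd11 at chr2:74520130-74520429, both on the plus strand.
Hoxa3: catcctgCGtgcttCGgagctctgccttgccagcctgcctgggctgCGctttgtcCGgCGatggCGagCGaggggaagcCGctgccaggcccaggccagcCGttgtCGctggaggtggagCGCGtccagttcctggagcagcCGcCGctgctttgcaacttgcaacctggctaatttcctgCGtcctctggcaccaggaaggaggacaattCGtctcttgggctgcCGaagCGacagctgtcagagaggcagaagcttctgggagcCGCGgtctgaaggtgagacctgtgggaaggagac
Hoxa10: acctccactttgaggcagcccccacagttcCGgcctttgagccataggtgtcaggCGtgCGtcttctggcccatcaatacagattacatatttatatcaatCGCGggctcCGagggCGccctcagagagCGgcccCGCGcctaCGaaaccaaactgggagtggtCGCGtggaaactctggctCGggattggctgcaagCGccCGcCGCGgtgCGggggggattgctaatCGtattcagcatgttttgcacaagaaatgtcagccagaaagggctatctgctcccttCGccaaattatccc
Hoxb4: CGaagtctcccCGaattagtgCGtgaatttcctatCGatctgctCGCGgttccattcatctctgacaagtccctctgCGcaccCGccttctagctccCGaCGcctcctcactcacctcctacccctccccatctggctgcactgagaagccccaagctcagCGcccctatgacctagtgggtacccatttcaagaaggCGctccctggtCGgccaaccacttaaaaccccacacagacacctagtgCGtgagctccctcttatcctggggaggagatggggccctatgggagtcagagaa
Hoxd11: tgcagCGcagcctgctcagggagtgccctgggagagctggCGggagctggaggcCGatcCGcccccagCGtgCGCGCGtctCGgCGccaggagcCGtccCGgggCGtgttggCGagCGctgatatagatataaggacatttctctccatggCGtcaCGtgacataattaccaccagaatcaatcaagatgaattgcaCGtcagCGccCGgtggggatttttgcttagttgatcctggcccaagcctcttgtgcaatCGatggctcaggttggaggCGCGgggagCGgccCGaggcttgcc

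These windows hold 20 CG dinucleotides at Hoxa3, 21 at Hoxa10, 14 at Hoxb4 and 25 at Hoxd11. RefSeq start windows were matched for 22 of the 39 Hox genes, 24 windows in all, of which 19 begin at the start of the counted transcript. The Hox windows had a median of 14.5 CG dinucleotides and a median GC content of 57.7%, against 7 and 52.7% over the 32851 windows of all genes, and the median ratio of observed to expected CG was 0.626 against 0.384. The letters TAAT, the core of many homeodomain binding sites, were found on either strand in 19 Hox windows (79.2%) and in 58.0% of all windows. The letters AGGGGGC, part of the CTCF motif, were found on either strand in 2 Hox windows (8.33%, one of them at the upstream start of Hoxa10 and the other at Hoxd13) and in 10.6% of all windows. The windows ranged widely, from 4 to 45 CG dinucleotides, and these counts say nothing of binding.

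Among the genes of the 3′ end, paralogue groups 1 to 4, which act in the hindbrain and neck, 11 of 12 were higher in both tables and the summed level was 19.5 and 17.0 CPM with doxycycline and 8.61 and 10.0 CPM without. Hoxb1, which specifies a hindbrain segment, had 1.51 and 1.18 CPM against 0.589 and 0.757 CPM, a log2 fold change of 1.00 (SE 0.41, adjusted p = 0.209, edgeR). Its +dox and -dox libraries did not overlap. Hoxd1, at the 3′ end of its cluster, had 1.69 and 2.41 CPM with doxycycline and 1.18 and 2.31 CPM without, so its groups overlapped and its log2 fold change was 0.24 (SE 0.38). Hoxc4 had 1.15 and 1.18 CPM against 0.688 and 1.12 CPM, a log2 fold change of 0.38 (SE 0.41). Hoxd1 and Hoxc4 thus differed by less than their standard errors.

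The central genes, paralogue groups 5 to 8, which pattern the thorax and trunk, gave the largest ratios of the 3 position classes and the largest gap between the tables. Their summed level was 19.7 and 7.58 CPM with doxycycline and 6.09 and 3.87 CPM without. The ratio was 3.24 in replicate 1 and 1.96 in replicate 2. All 11 were higher in both tables, though Hoxa6 and Hoxc5 had 2 counts in each library of replicate 2. In replicate 2 the ratios were 1.70 for groups 1 to 4 and 1.72 for groups 9 to 13. The central genes thus came first in each table. With the +dox library of replicate 1 left out and both -dox libraries kept, the order changed. The log2 ratio was smallest for the central genes, at 0.61, against 0.87 for groups 1 to 4 and 0.70 for groups 9 to 13. Hoxc6, expressed in the thoracic region, had 3.20 and 1.36 CPM with doxycycline and 0.851 and 0.279 CPM without, a log2 fold change of 1.97 (SE 0.52, adjusted p = 0.0689, edgeR). It changed by 1.82 in replicate 1 and 2.00 in replicate 2. Hoxa5, needed for the lung and airway, had 3.20 and 0.613 CPM against 0.720 and 0.319 CPM, so that its higher -dox library lay above its lower +dox library, and its log2 fold change was 1.84 (SE 0.65, adjusted p = 0.15, edgeR). Hoxa7 had 3.29 and 2.23 CPM with doxycycline and 1.83 and 1.32 CPM without, with a log2 fold change of 0.80 (SE 0.33, adjusted p = 0.215, edgeR). Hoxb8, with the largest fitted value of all (2.14, SE 0.56, adjusted p = 0.0665, edgeR), rested on 43 and 18 counts with doxycycline and 12 and 5 without. Hoxa6, Hoxc5 and Hoxc8 differed in the +dox library of replicate 1, at 0.400, 0.977 and 2.09 CPM, far more than in that of replicate 2, at 0.0876, 0.0876 and 0.394 CPM.

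The 5′ genes, paralogue groups 9 to 13, which pattern the lumbar to tail region, the limbs and the urogenital tract, are 16 of the 39 genes and made up the largest part of the Hox reads, with a summed level of 45.1 and 32.8 CPM with doxycycline and 21.3 and 19.1 CPM without. Hoxc13, which acts in hair and nail formation, had 12.3 and 13 CPM with doxycycline (mean 12.7 ± 0.496, SD, n = 2) and 7.99 and 6.81 CPM without (7.40 ± 0.830, SD, n = 2). Its log2 fold change was 0.77 (SE 0.20, adjusted p = 0.0578, edgeR), and it was the 1 Hox gene with a DESeq2 adjusted p under 0.05 (0.0364). It differed from most Hox genes in that replicate 2 gave the larger change, 0.92 against 0.62. Hoxd13, which shapes the digits, had 6.04 and 3.85 CPM against 2.59 and 1.99 CPM, a log2 fold change of 1.10 (SE 0.30, adjusted p = 0.0705, edgeR). Hoxb9 had 8.04 and 3.77 CPM with doxycycline and 3.54 and 2.07 CPM without, a log2 fold change of 1.06 (SE 0.36, adjusted p = 0.136, edgeR). In these 3 genes the groups did not overlap, but for Hoxb9 the lower +dox and the higher -dox library were close.

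Hoxa11, a partner of Hoxd11 in the forearm, had 4.00 and 1.66 CPM with doxycycline and 1.18 and 0.877 CPM without, a log2 fold change of 1.45 (SE 0.42, adjusted p = 0.0860, edgeR). Of its exon bases 35.0% are shared with genes of the opposite strand, where Hoxa11os lies. Hoxa9, known from leukaemias that depend on it, had 1.60 and 0.876 CPM against 0.884 and 0.677 CPM. Hoxd9, of the same paralogue group, had 1.60 and 2.23 CPM against 1.38 and 1.55 CPM. Their log2 fold changes were 0.65 (SE 0.43) and 0.39 (SE 0.33), and the groups overlapped for Hoxa9 but not for Hoxd9. Hoxb13, far upstream of the rest of its cluster, had the smallest change, 0.10 (SE 0.56), with 0.533 and 0.613 CPM with doxycycline and 0.327 and 0.757 CPM without.

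The 24 Hox genes with a mean under 1 CPM ran from 0.114 to 0.997 CPM with log2 fold changes between 0.10 and 2.14 and a median of 1.44. In 17 of them both +dox libraries lay above both -dox libraries, against 23.3% of all genes. At an unadjusted p under 0.05 (edgeR) 11 were higher, against 8.48% of all genes, the lowest p being 0.0012 for Hoxd11. Hoxd3 and Hoxc11 had between 1 and 6 counts in a library. Hoxb3 was counted on a different transcript in the 2 tables, the 1 Hox gene of which this holds, and had 2.62 and 0.394 CPM with doxycycline and 0.393 and 0.279 CPM without. Exon bases are shared with an opposite-strand gene in 7 Hox genes and with a same-strand gene in 8, the largest shares being 58.6% for Hoxb2 and 67.4% for Hoxd4, which overlaps Hoxd3 and Mir10b, so the split of reads among these genes is uncertain.

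**Figure D2:**
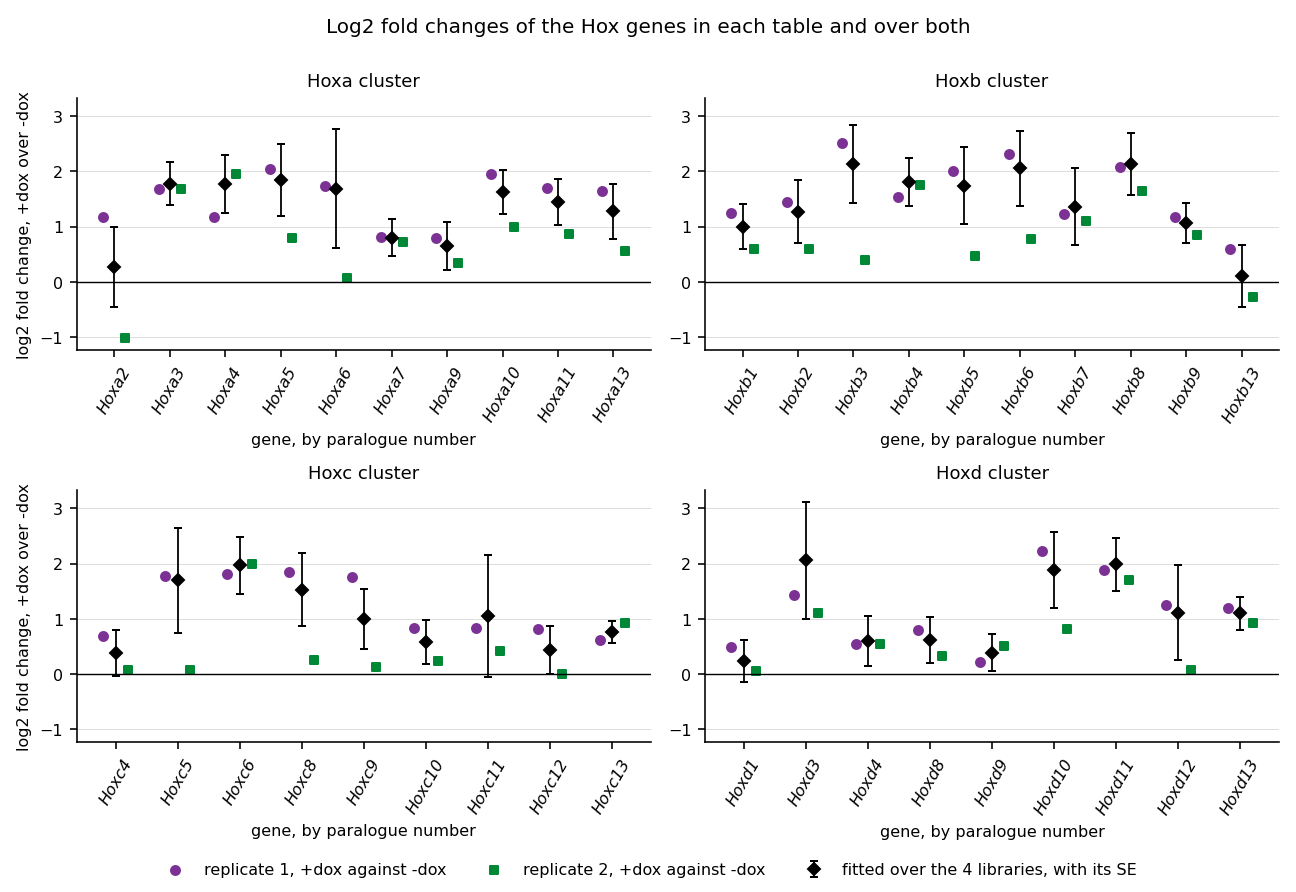
Log2 fold change of +dox over -dox for the Hox genes shown (vertical axis) by cluster and paralogue number; purple circles are replicate 1, green squares replicate 2 and black diamonds the fit over the 4 libraries with its standard error. All diamonds lie above 0, and the purple circle is the higher of the 2 tables' points in 32 genes.

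Cluster by cluster, the direction was shared and the size differed. Cluster A (mm9 chromosome 6, 106 kb) summed to 25.3 and 16.7 CPM with doxycycline and to 9.99 and 8.81 CPM without. Cluster B (chromosome 11, 174 kb) summed to 20.9 and 9.72 CPM against 6.97 and 5.26 CPM. In these 2 clusters 8 of 11 and 8 of 10 genes were higher at an unadjusted p under 0.05 (edgeR), against 8.48% of all genes. Their median log2 fold changes were 1.45 and 1.55. Cluster C (chromosome 15, 116 kb) summed to 23.4 and 18.8 CPM with doxycycline and to 11.9 and 11.1 CPM without. Cluster D (chromosome 2, 96.8 kb) summed to 14.7 and 12.2 CPM against 7.10 and 7.85 CPM. In clusters C and D 3 of 9 genes each had an unadjusted p under 0.05, and the medians were 1.00 and 1.10. In replicate 1 alone the medians of clusters A to D were 1.64, 1.48, 0.83 and 1.20, and in replicate 2 alone they were 0.80, 0.68, 0.24 and 0.54. Replicate 1 gave ratios of 2.54, 3.0, 1.96 and 2.07 for clusters A to D and replicate 2 gave 1.89, 1.85, 1.69 and 1.56, so the order of clusters A and B depended on the table. Differences between clusters were not tested.

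By position within a cluster, the 2 tables gave nearly the same ratio for the 3′ genes of cluster A (2.04 in replicate 1 and 2.07 in replicate 2) and for the 5′ genes of cluster C (1.66 and 1.70). They differed most for the 5′ genes of cluster A (3.14 and 1.74), the 3′ genes of cluster B (3.67 and 2.04) and the central genes of cluster B, Hoxb5 to Hoxb8 (4.44 and 2.56). Cluster C gave 3.90 and 2.71 for its central genes. The summed ratio was above 1 in both tables for all 12 combinations of cluster and position, and the lowest was that of Hoxc4, the 1 gene of its class, in replicate 2, at 1.06. Median log2 fold changes over the clusters were 1.14 for groups 1 to 4, 1.70 for groups 5 to 8 and 1.06 for groups 9 to 13 in the fit over the 4 libraries. They were 1.22, 1.82 and 1.18 in replicate 1 and 0.60, 0.73 and 0.53 in replicate 2.

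Most fibroblast markers were higher with doxycycline too, mainly in replicate 1. Embryonic fibroblasts are known to express Hox genes according to where in the body they came from, and fibroblast markers were counted in every library. Col1a1, Col1a2 and Col3a1, collagen genes of the fibroblast list, had 247, 149 and 82.8 CPM in the +dox library of replicate 1, against 94.9, 57.4 and 31.6 CPM in that of replicate 2. Without doxycycline they had 66.6, 35.6 and 18.3 CPM in replicate 1 and 67.7, 37.4 and 21.5 CPM in replicate 2. Of the 30 fibroblast markers, 29 had a log2 fold change above 0 (median 1.31), against 50.8% of all genes. At an unadjusted p under 0.05 (edgeR) 23 were higher, against 8.48% of all genes, and 0 had an adjusted p under 0.01. In 23 of 30 the +dox level was above the -dox level in both tables, against 30.5% of all genes. The markers with the fewest counts, Fap and Lum, had at most 0.267 and 0.533 CPM, and none of the list was at 0.

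Set side by side, the 2 tables gave different proportions. In replicate 1 the fibroblast sum was 2.64 times and the Hox sum 2.34 times the -dox value, and the median log2 fold changes were 1.63 and 1.25. In replicate 2 the fibroblast sum was 1.14 times and the Hox sum 1.74 times the -dox value, and the medians were 0.30 and 0.59. A log2 fold change of at least 1 in replicate 2 was found for 2 of 30 fibroblast markers and 8 of 39 Hox genes, and 28 of 39 Hox genes were above the fibroblast median of that table. In replicate 1 those counts were 24 of 30, 26 of 39 and 16 of 39. The part that fibroblast RNA has in the Hox differences was not tested.

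**Figure D3:**
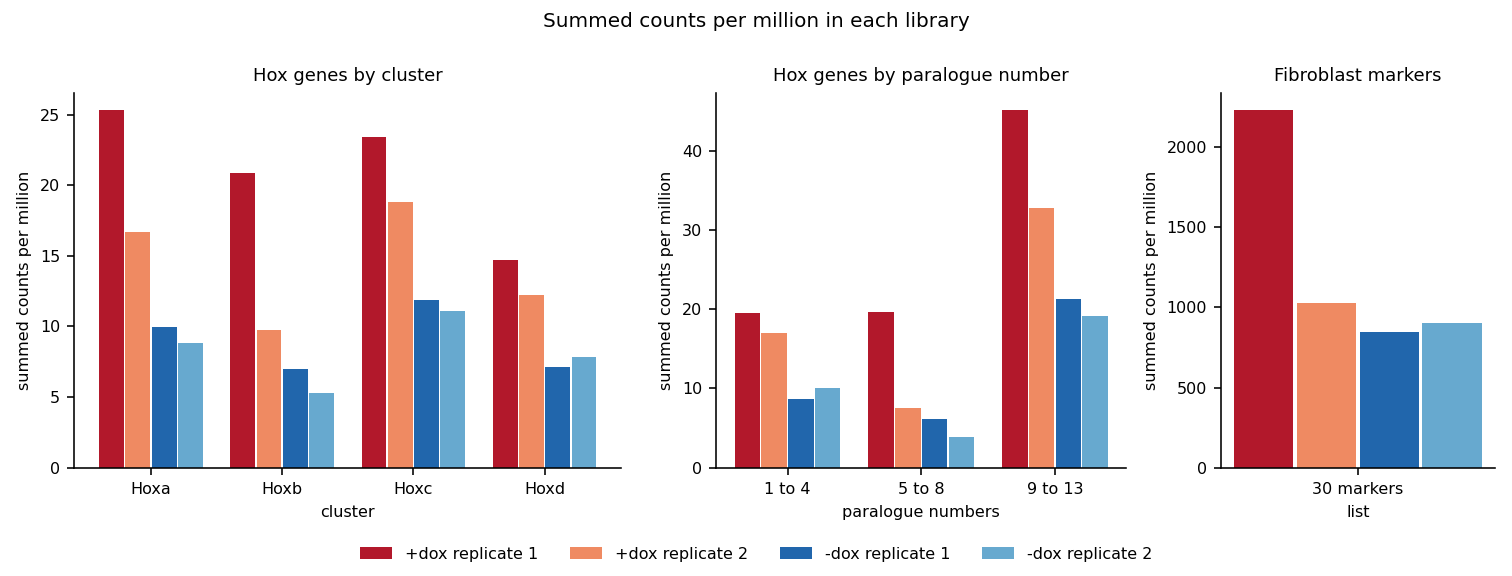
Summed CPM (vertical axes, from 0) in each library for the Hox genes by cluster, the Hox genes by paralogue number and the 30 fibroblast markers; bars are single libraries. The +dox library of replicate 1 is the tallest bar in each group, and in replicate 2 the fibroblast sum is 1.14 times and the summed Hox level 1.74 times the -dox value.

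Other transcripts inside the clusters mostly had fold changes above 0 too, while genes beside the clusters had a median near that of all genes. Of 18 noncoding rows inside the cluster spans 11 had counts and 10 of these had a log2 fold change above 0, with a median of 0.97 and 0 called. Hoxa11os, the antisense partner of Hoxa11, had 1.64 and 1.09 CPM with doxycycline and 0.393 and 0.359 CPM without, a log2 fold change of 1.85 (SE 0.46, adjusted p = 0.0532, edgeR). Mira, a noncoding RNA between Hoxa6 and Hoxa7, had 0.977 and 1.14 CPM against 0.524 and 0.279 CPM, a log2 fold change of 1.36 (SE 0.49, adjusted p = 0.155, edgeR). The 5 inside rows with at least 10 counts in all, the others being Gm53, Haglr and Hotairm1, ran from 0.68 to 1.85.

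Within 250 kb of a cluster lie 31 other rows, of which 29 had counts, with a median log2 fold change of 0.09 and 0 called. The 15 coding genes among them with a mean of at least 1 CPM ran from -0.25 to 0.44, with 8 above 0 and 7 below. Those with the lowest p were Calcoco1 beside cluster C (81.2 and 77.6 CPM against 68.9 and 67.4 CPM, log2 fold change 0.22, adjusted p = 0.295, edgeR) and Ttll6 beside cluster B (8.44 and 11.5 CPM against 6.58 and 8.17 CPM, log2 fold change 0.44, adjusted p = 0.347, edgeR). Evx1, the homeobox gene past the 5′ end of cluster A, had 6.57 and 6.31 CPM against 6.81 and 7.53 CPM, a log2 fold change of -0.15 (SE 0.21). Evx2, which holds the same place 8.75 kb from cluster D, had 0.844 and 0.131 CPM with doxycycline and 0.262 and 0.0797 CPM without, a log2 fold change of 1.43 (SE 0.89) on few counts.

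**Figure D4:**
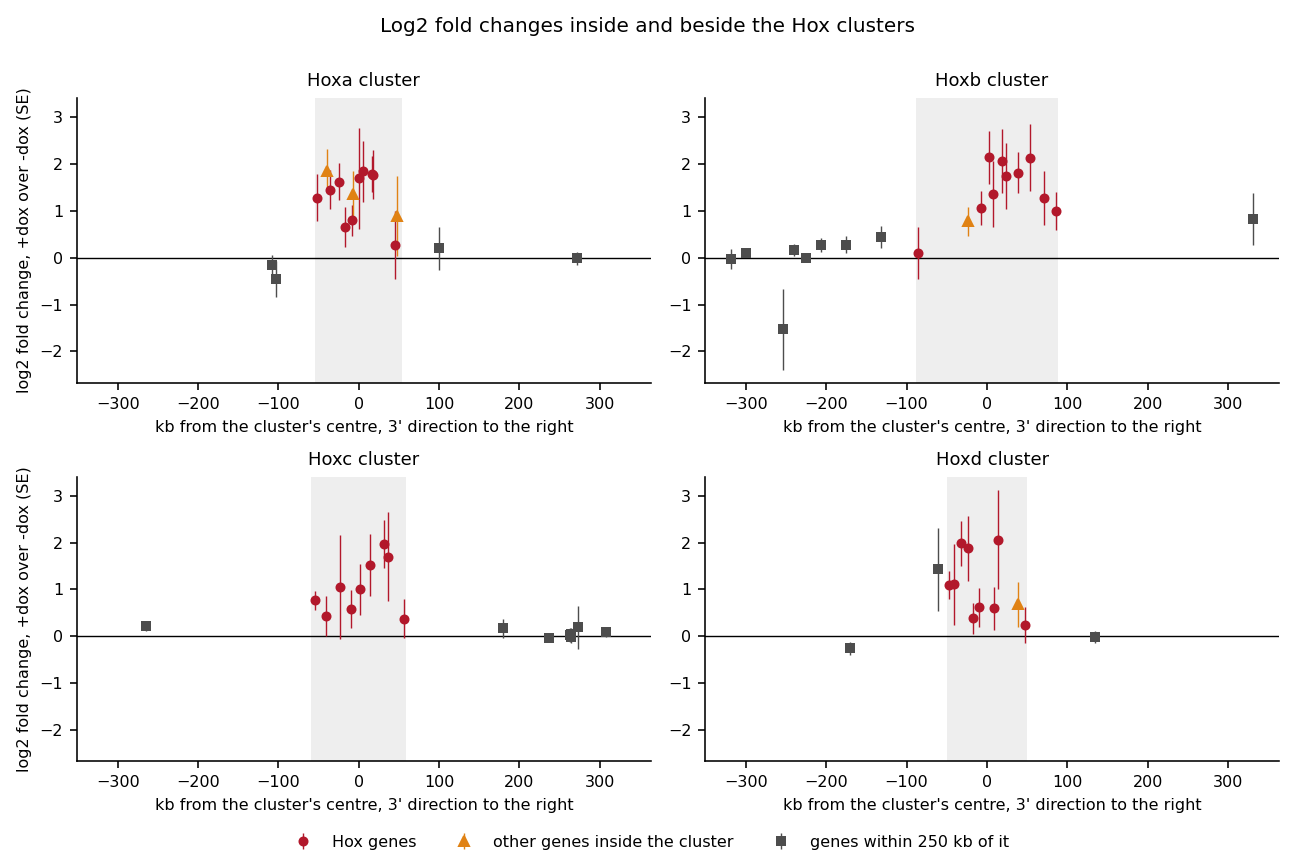
Log2 fold change of +dox over -dox (vertical axis, bars are SE) by distance from the centre of each cluster in kb, with the 3′ direction of the Hox genes to the right and the cluster's span in grey; other genes are shown where the 4 libraries held at least 10 counts in all. Hox genes and noncoding genes inside the spans lie above 0, and the 15 well-measured coding genes beside them lie between -0.25 and 0.44.

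TALE homeodomain cofactors (Pbx, Meis and Pknox genes, which bind DNA with Hox proteins) had 0 of 9 called, with Meis1 (3.86 and 3.28 CPM against 1.70 and 2.39 CPM) and Pbx3 (23.5 and 24.1 CPM against 29.3 and 32.4 CPM) at the lowest p, with log2 fold changes of 0.81 and -0.37 and adjusted p-values of 0.160 and 0.180 (edgeR). These 2 cofactors differed in sign. Of 17 Trithorax and Polycomb genes, which keep Hox genes on or off, 0 were called, and their log2 fold changes ran from -0.22 to 0.61. Bmi1, a Polycomb subunit, had 18.4 and 17.1 CPM against 11.4 and 11.8 CPM (log2 fold change 0.61, adjusted p = 0.0789, edgeR). Pcgf2, its paralogue, had 201 and 235 CPM against 180 and 176 CPM (log2 fold change 0.29, adjusted p = 0.135, edgeR).

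ParaHox and Evx genes, the nearest relatives of the Hox genes, had 0 of 8 called and a summed level of 12.7 and 14.3 CPM with doxycycline and 14.0 and 16.2 CPM without. The Cdx genes, which activate central and posterior Hox genes in the embryo, differed in sign. Cdx2 had 0.311 and 0.569 CPM with doxycycline and 1.80 and 2.19 CPM without, a log2 fold change of -2.16 (SE 0.42, adjusted p = 0.0211, edgeR). Cdx4 had 2.13 and 2.67 CPM against 1.15 and 1.32 CPM, a log2 fold change of 0.97 (SE 0.32, adjusted p = 0.130, edgeR). Cdx1 had 1.42 and 2.41 CPM against 1.60 and 3.83 CPM, with a log2 fold change of -0.49 (SE 0.41). Neither Cdx2 nor Cdx4 overlapped between groups.

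Of 13 retinoic acid genes 1 was called, as lower. Cyp26a1, a retinoic acid degrading enzyme and itself a retinoic acid target, fell from 9.82 and 14.4 CPM without doxycycline to 0.933 and 0.613 CPM with it, a log2 fold change of -3.96 (SE 0.31, adjusted p = 5.9e-05, edgeR). The receptor genes Rara, Rarb and Rarg had log2 fold changes of 0.13, 0.26 and 0.35, with 0 called. Markers of the primitive streak and early mesoderm, the embryonic tissue in which Hox genes first come on, fell in 8 of 16 genes, against 0.519% of all genes, among them T (5.73 and 7.18 CPM with doxycycline, 46.3 and 66.7 CPM without, log2 fold change -3.13, adjusted p = 1.7e-05, edgeR). Of 12 neural progenitor markers 9 had a log2 fold change above 0. In that list 1 gene was called as higher, against 0.0798% of all genes, and 0 as lower. The called gene was Pax6 (26.4 and 34.0 CPM against 14.5 and 13.9 CPM, log2 fold change 1.09, adjusted p = 0.0057, edgeR). Over all lists 10 genes were called, and 0 without either -dox library.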

How the data were processed

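The deposited tables hold whole-number counts of reads per gene. The authors used cutadapt for trimming, TopHat2 for alignment (mm9), removed duplicate reads and counted unique exon reads in HOMER. Tool versions and strand use are not given in the sources used here. Rows were paired between the tables by symbol. A gene entered the fit when any library had 1 count or more (20044 genes), and +dox was tested against -dox in edgeR 4.0.16 (quasi-likelihood, TMM scaling, R 4.3.3, two-sided, Benjamini-Hochberg over all genes, threshold 0.01), after a test on simulated data. CPM are TMM-scaled. Alternatives were DESeq2 1.42.0, other scalings, filters and thresholds, a block and left-out libraries. Hox genes averaging 1 CPM or more are given in every library, except 1 that is counted in the sums but not reported here by itself. Of each other list, genes past the threshold were named, or else the 2 with the lowest p, with Cdx1, Cdx2, Cdx4, Evx1, Cyp26a1, Ctcf and 3 collagens always allowed; Evx2, Fap, Lum, Rara, Rarb, Rarg and the smaller noncoding genes were chosen after their values were seen, and T is 1 of 8 streak genes called. Each condition had 2 libraries, and precision rests on their spread. The members and lists were chosen with earlier results of these data known.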

Additional observations from a re-analysis of the deposited data

How the results depend on the processing

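The direction of the Hox genes as a group held under every alternative run, with at least 35 of 39 genes above 0, or all of those a filter left, while the calls moved. At an adjusted p under 0.01, 0 Hox genes were called by edgeR, by DESeq2, with deviances adjusted for small counts, with DESeq2's size factors, with edgeR's filter on low counts (30 Hox genes left) and, chosen after seeing the data, over genes whose counted transcript was the same in each table (38 Hox genes) and in DESeq2 with a replicate block. With the threshold at 0.05 there were 4 in the main fit, 4 with DESeq2's size factors and 4 over genes with the same transcript. There were 15 with a replicate block in edgeR and 1 by DESeq2. With adjusted deviances, with the filter and in DESeq2 with the block there were 0. Leaving out 1 library gave 0 to 12 Hox calls, with 12 without the +dox library of replicate 2 and 1 (Hoxc13) without that of replicate 1, each with the lone library assumed to vary like the others. In both fits without a +dox library, more of all genes were called than in the main fit, as given below. With 1 library left in a group, the calls of Hoxc13 and the other Hox genes cannot be weighed, and no conclusion is drawn from them. The median log2 fold change of 1.27 ran from 0.54 (without the +dox library of replicate 1) to 1.64 over the fits with a library left out. It ran from 1.04 to 1.29 over the other alternatives.

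Same-numbered libraries share only a number in the labels. Their deviations from the group means correlated at 0.196 over 13911 genes in 2 pairs. In the paired fit, with replicate number as a replicate block in edgeR, 9 Hox genes were called (Hoxa3, Hoxa5, Hoxa10, Hoxa11, Hoxb8, Hoxb9, Hoxc6, Hoxd11 and Hoxd13) among 786 of all genes and 33 of the other lists.

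Over all genes, 120 were called, 375 by DESeq2, 264 by DESeq2 with the block, 0 with adjusted deviances, 11 with the filter, 573 at 0.05 and 0 to 992 with a library left out (992 without +dox replicate 1, 877 without +dox replicate 2, 0 without either -dox library). Of the other lists 10 genes were called, 0 with adjusted deviances, 6 with the filter, 22 at 0.05 and 0 to 41 with a library left out. The cause was not tested. Summed Hox levels, as log2 ratios of +dox to -dox, ranged with a library left out from 0.74 to 1.29 over all genes, 0.83 to 1.43 for cluster A, 0.67 to 1.77 for B, 0.71 to 1.02 for C, 0.71 to 0.98 for D, 0.86 to 1.09 for groups 1 to 4, 0.61 to 1.99 for 5 to 8 and 0.70 to 1.16 for 9 to 13. Single genes turned lower without the +dox library of replicate 1 (Hoxa2 -0.88, Hoxc5 -0.84, Hoxd12 -0.28, Hoxc8 -0.12), without that of replicate 2 (Hoxd1 -0.03) and without the -dox library of replicate 1 (Hoxa2 -0.14, Hoxb13 -0.40, Hoxd1 -0.17). Their highest values with a library left out were 0.92 for Hoxa2, 0.80 for Hoxb13, 2.66 for Hoxc5, 2.27 for Hoxc8, 0.79 for Hoxd1 and 1.81 for Hoxd12. Depth limits every Hox value, with a median of 19.0 counts per gene and library.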
